A study of Mus musculus with 6 samples.

Results

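Sertoli cell markers were read on 6 bead arrays of mouse RNA, as a check for somatic cells of the testis in germline stem cell samples. The markers were a set of 10 genes, Gata4, Wt1, Amh, Inha, Inhbb, Cldn11, Dhh, Clu, Cst9 and Fshr, and the members were all probes whose platform annotation names one of these genes. Of the 10 genes, 7 had such probes, 9 probes in all, among 19057 genes and 45281 probes. Wt1, Inhbb and Clu had no probe of their name in the annotation used and were not analysed here. The arrays fell into 3 groups of 2. HFGSC stands for germline stem cells that the labels derive from hair follicles of the dorsal skin, at an age of 4 months. GSC stands for germline stem cells of the testis, at 3 months. HF stands for hair follicle cells of the dorsal skin, at 2 months. All mice were of the OG2 strain, in which regulatory sequences of the pluripotency gene Pou5f1 drive green fluorescent protein. The groups differ in age as well as in cells. How the cells were cultured, whether on a feeder layer, and whether arrays came from separate animals are not given in the sources used here, so p-values speak only to the spread among these samples, which may be technical.

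Sertoli cells are the somatic nurse cells of the seminiferous tubule. They enclose the germ cells, seal the tubule with tight junctions, respond to follicle-stimulating hormone, and secrete hormones and growth factors that germ cells and neighbouring somatic cells receive. Stem cell preparations from testis can carry such somatic cells along. The markers stand for different parts of that work: transcription factors (Gata4), hormones (Amh, Inha), the hormone receptor (Fshr), a paracrine signal (Dhh), a secreted protease inhibitor of the cystatin family (Cst9) and the tight junction (Cldn11). No array of isolated Sertoli cells or of whole testis was among the 6, so whether these probes read above background in Sertoli cell RNA was not tested.

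Detection was taken from the deposited detection p-value of each probe and array, the share of negative control probes at or above the probe's intensity. The p-values moved in steps of 1 of 936, and a p under 0.05 counted as detected. The lowest detected intensity lay between 132 and 191 over the 6 arrays, or between 5.88 and 6.50 on the normalized log2 scale used below, and 16094 to 19552 probes per array passed. Array mean intensities lay between 911 and 1149. The 2 HF arrays stood apart in detection, with 16593 and 16094 probes detected and lowest detected log2 values of 6.39 and 6.50. On the HFGSC and GSC arrays 18772 to 19552 probes were detected, and the lowest detected log2 values were 5.88 to 5.99. The same log2 value can therefore be detected on an HFGSC or GSC array and undetected on an HF array. The precision is set by having 2 arrays a group.

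Most of the markers were at background everywhere. Of the 54 readings, 9 probes on 6 arrays, 3 were detected, and all 3 were on HFGSC arrays. They belonged to Cldn11, on both HFGSC arrays, and to Inha, on 1 of them. Gata4, Amh, Dhh, Cst9 and Fshr, 5 of the 7 genes, were not detected on any array, against 6888 of all 19057 genes. On both arrays of a group, 1 of 7 markers was detected in HFGSC, 0 of 7 in GSC and 0 of 7 in HF. Of all 19057 genes the shares detected on both arrays were 52.6% in HFGSC, 52.1% in GSC and 44.1% in HF.

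The 5 markers never detected lay in overlapping low ranges in the 3 groups, with the top reading, that of Gata4, in HFGSC. Their normalized log2 values ran from 4.83 to 5.80 in HFGSC, from 4.87 to 5.49 in GSC and from 4.87 to 5.35 in HF. Summed over these 5 genes, the normalized intensity was 171 and 183 on the HFGSC arrays, 172 and 173 on the GSC arrays, and 172 and 171 on the HF arrays. Summed over all 7 genes it was 415 and 689 in HFGSC, 251 and 279 in GSC, and 233 and 233 in HF. The HFGSC arrays were set apart by Cldn11, and replicate 2 by Inha as well. On HFGSC replicate 1 Inha was undetected, at 5.50 log2, under the 5.90 of GSC replicate 2. In RNA of mixed cells, fewer cells of a type and less RNA per cell cannot be told apart.

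**Figure D1:**
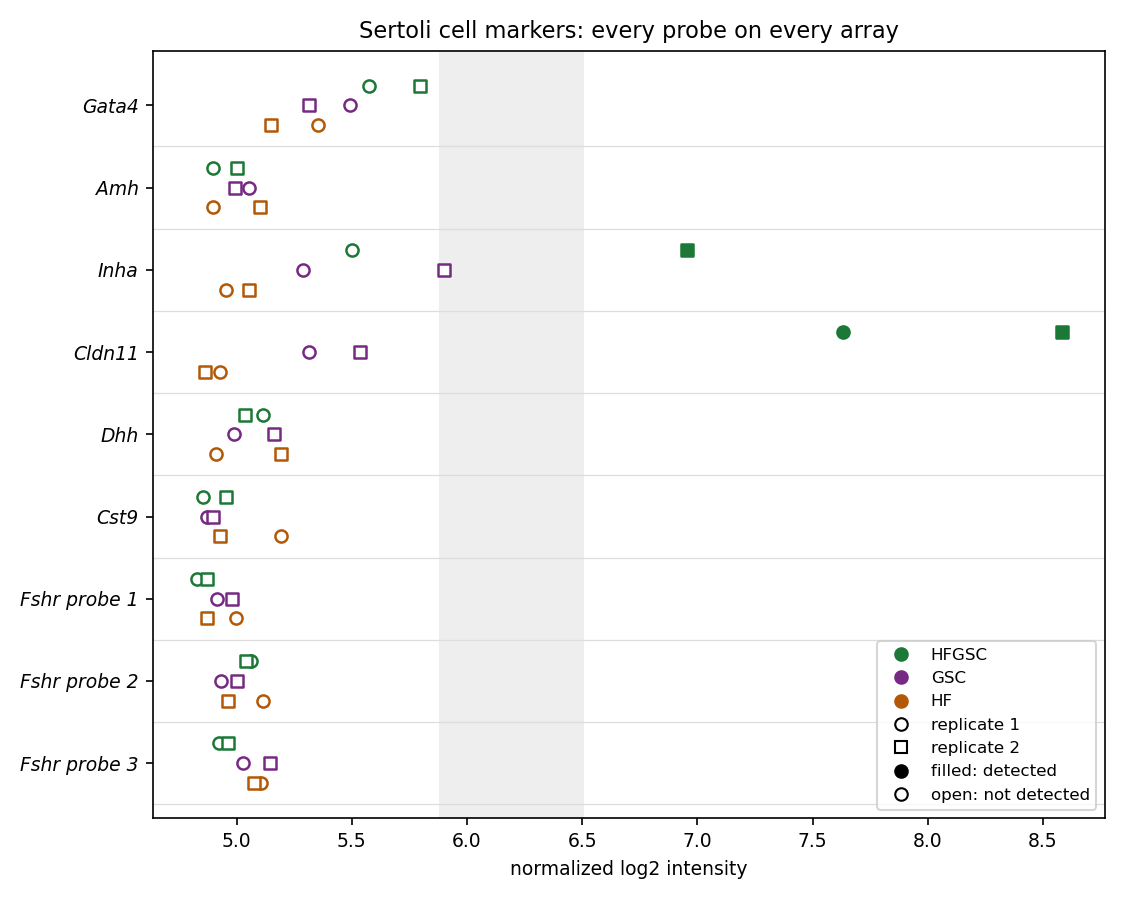
Normalized log2 intensity of all 9 marker probes on the 6 arrays, with HFGSC above GSC above HF in each row, circles for replicate 1 and squares for replicate 2. Filled points were detected and open points were not; the grey band spans the lowest detected value of the arrays, 5.88 to 6.50, and only Cldn11 and Inha have filled points, all in HFGSC.

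Gata4 encodes a zinc finger transcription factor of the gonadal somatic cells, needed for Sertoli cell function. Its probe (ILMN_2817903) read 5.58 and 5.80 log2 on the HFGSC arrays, 5.49 and 5.32 on the GSC arrays, and 5.35 and 5.15 on the HF arrays. None of these readings was detected, and the smallest detection p was 0.0791, on HFGSC replicate 2. Gata4 was therefore outside the test, and in a fit without the detection filter HFGSC against HF did not pass (limma adjusted p = 0.142, unadjusted p = 0.0312).

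Of the other GATA factors, Gata2, Gata3 and Gata6 gave signals, highest in HF, while Gata1 and Gata5 were not detected on any array. Gata6, which is also expressed in Sertoli cells, read 5.30 and 5.60 log2 in HFGSC, 5.18 and 5.29 in GSC, and 11.00 and 11.17 in HF. It was detected on the HF arrays only and was at least 35.8-fold lower in HFGSC (limma adjusted p = 0.000233) and at least 35.4-fold lower in GSC (adjusted p = 0.000199) than in HF. Such lower bounds set the brighter group's mean against the lowest detected signal of each dim array, or the dim probe's own signal where that was higher. Gata3 read 5.17 and 6.69 in HFGSC, where 1 of 2 arrays detected it, 5.17 and 5.08 in GSC, and 8.87 and 9.36 in HF. It fell in HFGSC against HF (limma adjusted p = 0.00523) by 5.37-fold without HFGSC replicate 1, and it was at least 9.04-fold lower in GSC (adjusted p = 0.00178). Gata2 read 9.29 and 11.27 in HFGSC, 9.20 and 9.74 in GSC, and 13.21 and 13.16 in HF, lower in GSC (adjusted p = 0.00454) and in HFGSC (adjusted p = 0.0137, but 0.0622 without HF replicate 1 and 0.0565 without HF replicate 2). Of the 5 tested genes in the list of GATA and WT1 partners, 3 fell against HF in HFGSC and the same number in GSC, where 9.37% and 12.6% of all tested genes fell.

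Amh, the hormone that removes the Müllerian ducts in male embryos, is made by immature Sertoli cells and falls to low levels in the adult testis. Its probe (ILMN_2768691) read 4.90 and 5.00 log2 in HFGSC, 5.06 and 4.99 in GSC, and 4.90 and 5.10 in HF. All 6 values overlapped and the smallest detection p was 0.470. Among the AMH and FSH pathway genes 9 were tested. In GSC against HF 1 of them rose and 2 fell, where 19.5% and 12.6% of all tested genes did. Amhr2, the AMH receptor, was at least 1.75-fold higher (limma adjusted p = 0.0380), but this call was lost in 7 of 16 alternative settings, among them leaving out HF replicate 1 (adjusted p = 0.174), HF replicate 2 (0.111) or GSC replicate 2 (0.144, at least 1.16-fold). Gnas, the G protein alpha subunit that couples the FSH receptor to adenylyl cyclase, was 4.30-fold lower (adjusted p = 0.0152), and Acvr1, a type I receptor for AMH and BMP signals, 3.43-fold lower (adjusted p = 0.0424), and both calls were lost without any single HF or GSC array. In HFGSC against HF 0 of the 9 passed in limma and 3 had an unadjusted p under 0.05, where 26.5% of all tested genes passed and 39.0% had such a p.

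Inha encodes the alpha subunit of inhibin, the gonadal hormone that lowers FSH release. Its probe (ILMN_1239270) had intensities of 147 and 247 in HFGSC, 131 and 128 in GSC, and 110 and 89.6 in HF. It was detected on HFGSC replicate 2 alone, where 3 of 936 controls were at or above it. The smallest detection p on the other arrays was 0.0641, on GSC replicate 2. On the normalized log2 scale the mean was 6.23 ± 1.03 in HFGSC, 5.59 ± 0.43 in GSC and 5.00 ± 0.07 in HF (SD, n = 2 each). Inha did not reach both arrays of any group and was not tested. Without the detection filter HFGSC against HF did not pass (limma adjusted p = 0.114, unadjusted p = 0.0225).

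Among the genes of inhibin and activin beta chains, Inhba was detected and Inhbb had no probe. Inhbc and Inhbe were not detected on any array, nor were Acvr1c, Acvr2a, Fstl3 and Smad7 of the same list. Inhba encodes the beta A subunit, which pairs with the alpha chain to form inhibin A or with itself to form activin A. It read 6.81 and 7.97 log2 in HFGSC, 6.74 and 6.51 in GSC, and 6.06 and 6.69 in HF, and was detected on 5 of the 6 arrays. It did not pass in any comparison. Acvr2b, an activin receptor, read 13.43 and 12.48 in HFGSC, 13.01 and 13.41 in GSC, and 9.18 and 9.36 in HF. Against HF it was 12.8-fold higher in HFGSC (limma adjusted p = 0.000812) and 15.4-fold higher in GSC (limma adjusted p = 0.000559). Fst, the activin antagonist follistatin, read 10.16 and 10.65 in HFGSC, 8.68 and 9.60 in GSC, and 5.38 and 7.79 in HF, where it was detected on replicate 2 alone. It rose in HFGSC against HF (limma adjusted p = 0.0140), but without HF replicate 1 the difference was 6.11-fold and did not pass (adjusted p = 0.0703). Igsf1, a membrane protein of the immunoglobulin superfamily, was at least 2.78-fold higher in GSC than in HF (adjusted p = 0.0137). This call was lost without HF replicate 1, HF replicate 2 or GSC replicate 2. Of 8 tested genes of the inhibin and activin list, 2 rose and 0 fell in each comparison with HF, where 17.2% and 19.5% of all tested genes rose in HFGSC and in GSC.

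Fshr, the receptor through which FSH acts on Sertoli cells, was the marker with the most probes. Its 3 probes, which read the same gene and are not independent, gave 18 readings with none detected. They lay between 4.83 and 5.06 log2 in HFGSC, between 4.91 and 5.15 in GSC, and between 4.87 and 5.11 in HF. The smallest detection p of any Fshr reading was 0.370, on GSC replicate 2.

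Dhh, the desert hedgehog ligand by which Sertoli cells signal to Leydig and peritubular cells, read 5.12 and 5.04 log2 in HFGSC, 4.99 and 5.16 in GSC, and 4.91 and 5.19 in HF (probe ILMN_2595664). The groups overlapped, and the smallest detection p was 0.355. On the receiving side, the receptor gene Ptch1 and its partner Smo were detected on all 6 arrays. Gli1 and Hhip, which like Ptch1 are transcribed in response to hedgehog signals, were not detected on any. Of 7 tested hedgehog genes 0 passed in HFGSC against HF in limma and 1 had an unadjusted p under 0.05, against 26.5% and 39.0% of all tested genes. In GSC against HF the transcription factor Gli2 was 6.51-fold lower (adjusted p = 0.0366), a call lost without any single HF or GSC array (adjusted p between 0.0860 and 0.169).

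Cst9, a cystatin also called testatin, read 4.85 and 4.95 log2 in HFGSC, 4.87 and 4.90 in GSC, and 5.19 and 4.93 in HF (probe ILMN_1239816). None was detected, with a smallest detection p of 0.379, on HF replicate 1. In the fit without the detection filter no comparison of Cst9, Amh, Dhh or Fshr passed in limma, and the smallest unadjusted p among them was 0.106.

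Cldn11 was the exception. It encodes claudin 11, the tight junction protein that Sertoli cells place in the blood-testis barrier and that oligodendrocytes place in myelin. Its single probe (ILMN_1246139) had intensities of 332 and 568 on the HFGSC arrays, 133 and 112 on the GSC arrays, and 107 and 76.5 on the HF arrays. On both HFGSC arrays 0 of the 936 negative controls were as bright, while the detection p was 0.209 and 0.144 in GSC and 0.839 and 0.938 in HF. These HFGSC intensities stood at percentiles 72.6 and 78.3 of all probes on their array. Both HFGSC arrays thus lay above the GSC and HF arrays, all 4 of which were at background.

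**Figure D2:**
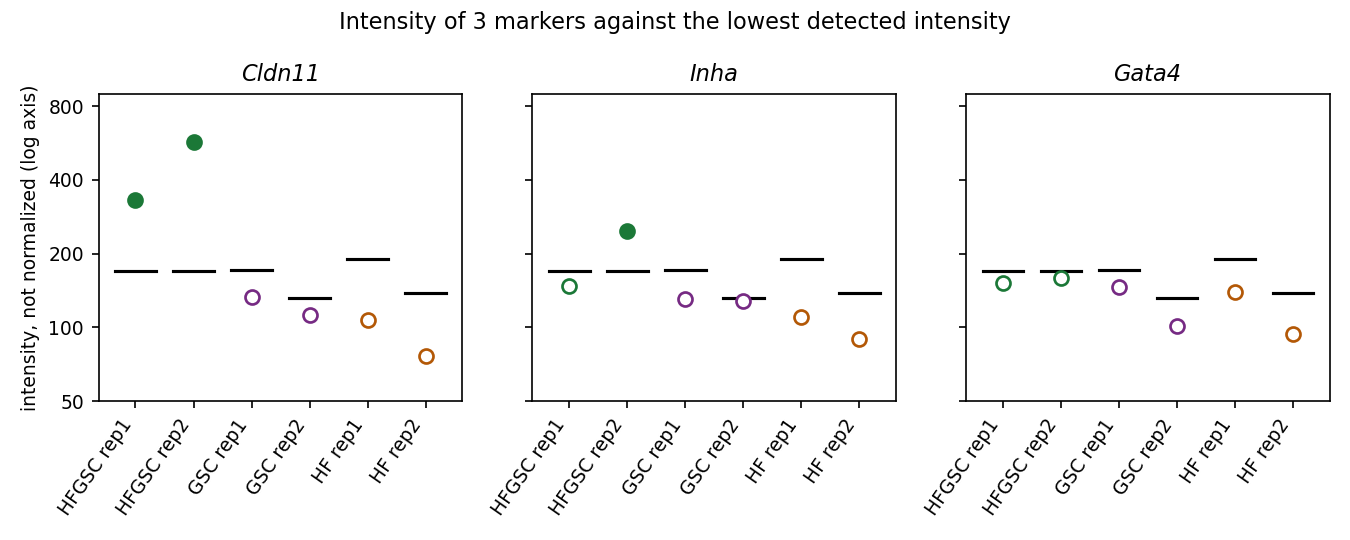
Intensity before normalization (log axis) of Cldn11, Inha and Gata4 on each of the 6 arrays, filled where detected, with a black bar at the lowest detected intensity of that array. Cldn11 is above the bar on both HFGSC arrays, at 332 and 568, Inha on HFGSC replicate 2 alone, at 247, and Gata4 on none.

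On the normalized log2 scale Cldn11 averaged 8.11 ± 0.67 in HFGSC, 5.43 ± 0.16 in GSC and 4.89 ± 0.05 in HF (SD, n = 2 each). It was at least 3.16-fold higher in HFGSC than in HF (log2 difference 3.21, SE 0.38, 95% interval 2.33 to 4.10, limma adjusted p = 0.00119). Of all 10913 genes tested in that comparison 26.5% passed. Cldn11 entered the test through its HFGSC arrays, where it is high, so that the 1 tested marker passed is no support of its own. The call held in all 16 alternative settings, with adjusted p between 0.00031 and 0.00703, and the log2 difference was 1.93 in the authors' normalized values and 2.02 without background correction.

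Between HFGSC and GSC, Cldn11 was at least 4.49-fold higher in HFGSC (log2 difference 2.68, SE 0.38, 95% interval 1.80 to 3.56, limma adjusted p = 0.0376). In this comparison 0.44% of all tested genes passed, 0.174% higher and 0.266% lower. The call was the less firm of the pair: it was lost in 11 of 16 settings, including without the detection filter (adjusted p = 0.0596), in the authors' normalized values (log2 difference 1.45, adjusted p = 0.0672), and without HFGSC replicate 2 (adjusted p = 0.101), GSC replicate 1 (0.185), GSC replicate 2 (0.197), HF replicate 1 (0.0695) or HF replicate 2 (0.0639). The direction was the same in all 16. In GSC against HF, where 32.1% of all tested genes passed, Cldn11 did not (limma adjusted p = 0.325, unadjusted p = 0.2). As it was undetected on all 4 of those arrays, no size of difference is given.

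**Figure D3:**
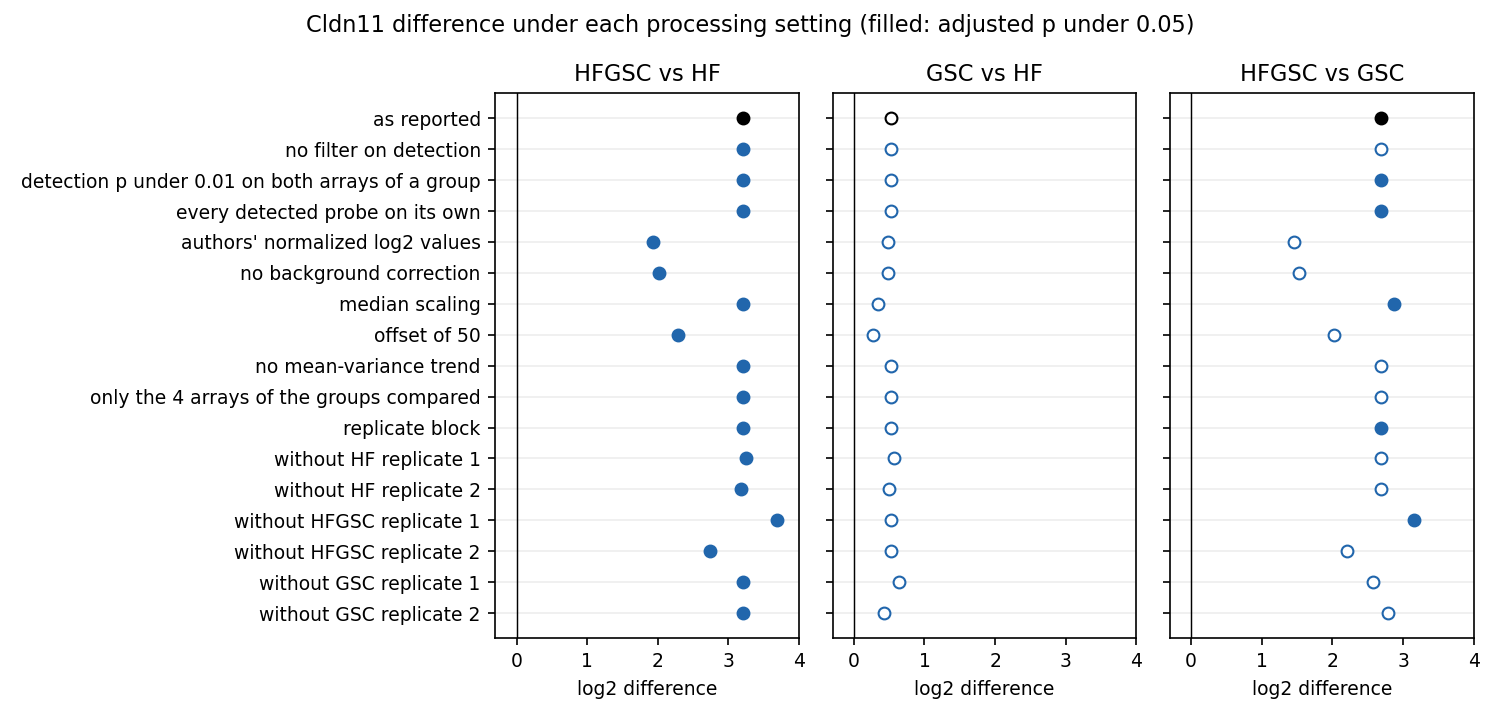
Log2 difference of Cldn11 in the 3 comparisons, as reported (black) and under 16 alternative settings (blue), filled where the limma adjusted p is under 0.05. HFGSC against HF is filled throughout, between 1.93 and 3.69, GSC against HF, which compares undetected readings, is open throughout, and HFGSC against GSC lies between 1.45 and 3.15 with 5 of 16 alternatives filled.

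Both detected markers were brighter on HFGSC replicate 2 than on replicate 1, and other gene groups differed between these arrays too. Of 8 fibroblast genes detected on both HFGSC arrays, 8 were higher on replicate 2, by a median of 1.69 log2. Of 12 germ cell genes, 0 were higher there, with a median difference of -1.07. Over all genes detected on both HFGSC arrays 52.5% were higher on replicate 2. The summed normalized intensity of the fibroblast list was 27339 and 62515 on the HFGSC arrays, against 24617 and 21984 on the GSC arrays and 25647 and 29378 on the HF arrays. Of its 11 genes, 8, 7 and 4 were detected on both arrays of HFGSC, GSC and HF, against 52.6%, 52.1% and 44.1% of all genes. Against HF 4 of its 8 tested genes rose and 0 fell in HFGSC, where 17.2% and 9.37% of all tested genes did. In GSC 3 rose and 1 fell, where 19.5% and 12.6% of all tested genes did. The genes that rose in either comparison, Dcn, Thy1, Lox and Col1a2, were undetected in HF. They entered the test through arrays where they are high, so these counts are no support of their own. Dcn, the matrix proteoglycan decorin, was at least 171-fold higher in HFGSC (limma adjusted p = 8.13e-05) and 104.8-fold or more in GSC (limma adjusted p = 8.47e-05). Thy1, a surface protein of fibroblasts and of spermatogonial stem cells, was at least 78.0-fold higher in HFGSC and 38.9-fold in GSC. Lox, an enzyme that crosslinks collagen, was at least 30.4-fold higher in HFGSC and 20.3-fold in GSC, and these 3 genes passed in every alternative setting in both comparisons. Without HFGSC replicate 2 the bounds in HFGSC were 45.05-fold for Thy1 and 20.2-fold for Lox. Col1a2, a collagen chain, rose in HFGSC (adjusted p = 0.0458), a call lost in 9 of 15 settings, and the matrix protein gene Sparc was 4.96-fold lower in GSC (adjusted p = 0.0273), a call lost without any single HF or GSC array. The fibroblast genes Lum, Postn and Fap were not detected on any array. The summed intensity of the germ cell list was 141974 and 84719 on the HFGSC arrays, 151612 and 143336 on the GSC arrays, and 677 and 952 on the HF arrays. The part of these cell type differences in the Cldn11 and Inha readings was not tested.

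A wider list of 40 genes that Sertoli cells express, many of which other cells also express, was read in the same way. Of its 38 genes on the array, the number detected on both arrays of a group was 22 in HFGSC, 20 in GSC and 10 in HF. These are 57.9%, 52.6% and 26.3% of the list, against 52.6%, 52.1% and 44.1% of all genes. The HFGSC and GSC shares are thus near those of all genes. Another 11 of the 38 were not detected on any array, against 6888 of all 19057 genes. Among the 11 were Nr5a1, Shbg, Rhox8, Tsx and Cst12, and also Bsg, a gene expressed in most cell types. An undetected reading on these arrays is therefore not given here as a level of 0.

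Of the 24 genes of the wider list that were tested, 8 rose and 4 fell in HFGSC against HF, where 17.2% and 9.37% of all tested genes did. Likewise 8 rose and 4 fell in GSC against HF, where 19.5% and 12.6% did. On both HF arrays 10 genes of the list were detected. Many that rose, such as Espn, Ocln and Defb36, were undetected in HF by the probe used. They entered the test through arrays where they are high, so these counts are no support of their own. The median log2 difference was 0.79 in HFGSC and 0.03 in GSC, against 0.05 and 0.07 over all tested genes. Without HF replicate 1 the counts were 4 and 2 in HFGSC and 4 and 3 in GSC. Without HF replicate 2 they were 5 and 2 in HFGSC, and without GSC replicate 2 they were 4 and 3 in GSC. The groups share the HF arrays, so the counts of HFGSC and GSC are not separate evidence.

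Junction and cytoskeleton genes of this list moved in both directions. Espn, the actin-bundling protein espin of the Sertoli cell ectoplasmic specialization, read 10.66 and 9.80 log2 in HFGSC, 11.20 and 11.59 in GSC, and 5.92 and 6.19 in HF. By the probe that stood for the gene it was higher by at least 13.8-fold in HFGSC (limma adjusted p = 0.0015) and by at least 30.9-fold in GSC (limma adjusted p = 0.000524) than in HF. A second of its 4 probes was detected on the same 4 arrays. The remaining pair lay near the lowest detected values and was detected on 3 and 1 of the 6 arrays. Both read higher on the HF arrays, at 6.13 to 6.67, than on any HFGSC or GSC array. As most of these readings were undetected, no direction is given for them. Ocln, the tight junction protein occludin, read 8.45 and 7.72 in HFGSC, 8.39 and 8.25 in GSC, and 5.09 and 4.94 in HF, at least 3.12-fold higher in HFGSC (adjusted p = 0.00258) and at least 3.66-fold in GSC (adjusted p = 0.00163). Gja1, the gap junction protein connexin 43, went the other way, at 9.56 and 11.55 in HFGSC, 8.74 and 8.71 in GSC, and 14.36 and 14.11 in HF. It was 12.8-fold lower in HFGSC (adjusted p = 0.0048; 6.42-fold without HFGSC replicate 1 and 25.5-fold without replicate 2) and 45.5-fold lower in GSC (adjusted p = 0.000833).

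**Figure D4:**
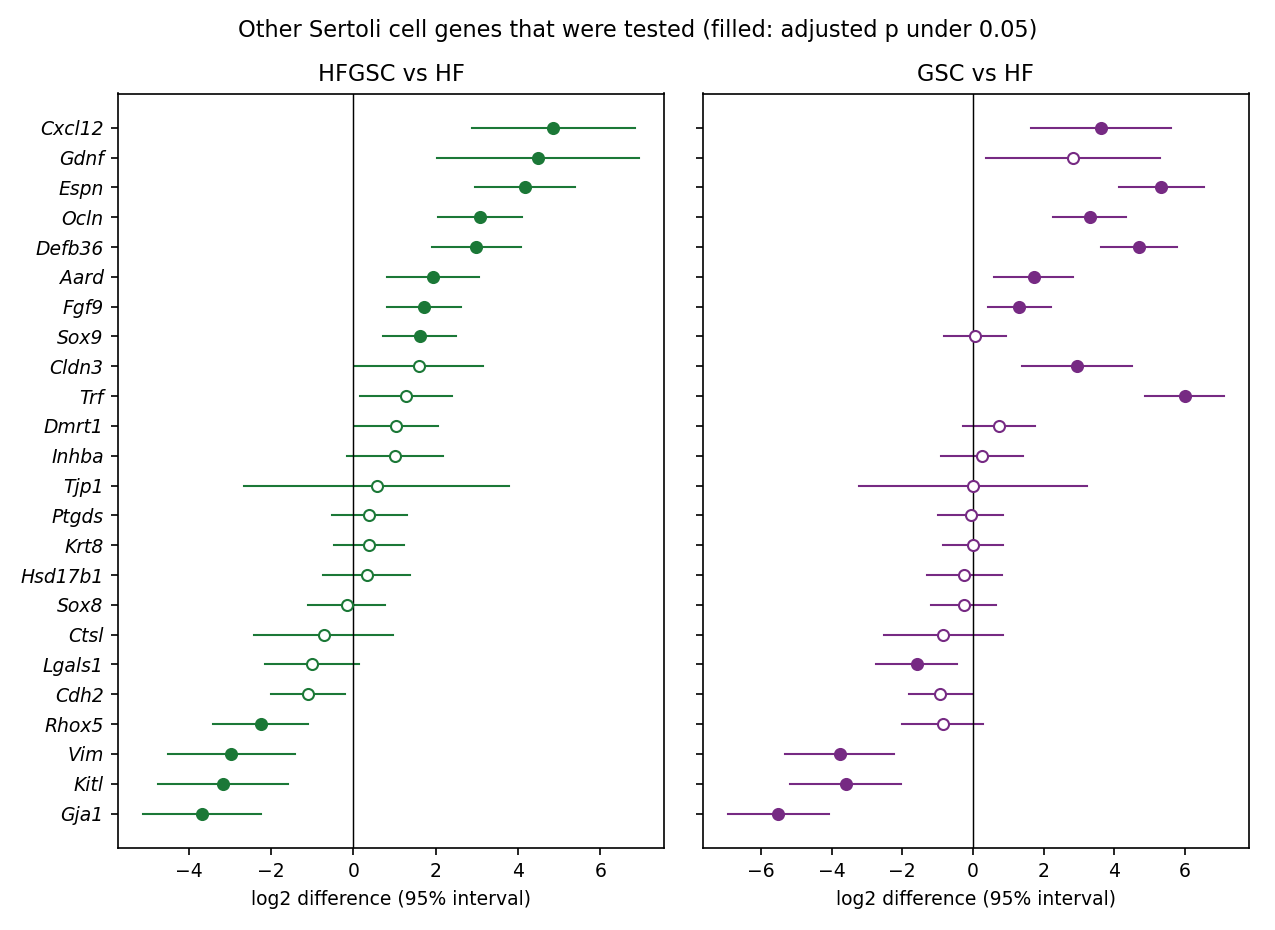
Log2 difference with its 95% interval for the 24 tested genes of the wider Sertoli cell list, in HFGSC against HF (left) and GSC against HF (right), ordered by the HFGSC difference and filled where the limma adjusted p is under 0.05. In each panel 8 genes are filled to the right of 0 and 4 to the left, and both panels use the same HF arrays.

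Among secreted products, Trf, the iron carrier transferrin that Sertoli cells supply to germ cells, stood out on the GSC arrays. It read 6.77 and 7.04 log2 in HFGSC, 11.52 and 11.73 in GSC, and 5.54 and 5.72 in HF. It was at least 36.1-fold higher in GSC than in HF (limma adjusted p = 0.000277) and 26.3-fold lower in HFGSC than in GSC (adjusted p = 0.0145). Between HFGSC and GSC it was the 1 gene that passed of 24 tested in this list, where 0.44% of all tested genes passed. That last call was lost with the 4 arrays of both groups alone (adjusted p = 0.0534) and without HFGSC replicate 2 (0.0607), GSC replicate 1 (0.0580) or GSC replicate 2 (0.0668). Cldn11 and Trf thus differed in opposite directions between HFGSC and GSC. Defb36, a beta-defensin gene, read 7.81 and 7.93 in HFGSC, 9.26 and 9.92 in GSC, and 5.00 and 4.76 in HF, and was at least 2.68-fold higher in HFGSC (adjusted p = 0.00356) and at least 8.83-fold in GSC (adjusted p = 0.000535).

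Sox9, Gdnf, Cxcl12 and Kitl were looked at after their values were seen. Sox9, the transcription factor that sets Sertoli cell fate, which is also active in hair follicle stem cells, was detected on all 6 arrays at 12.64 and 13.59 log2 in HFGSC, 11.42 and 11.71 in GSC, and 11.41 and 11.61 in HF. It was 3.04-fold higher in HFGSC than in HF (limma adjusted p = 0.0188), a call lost without HF replicate 1 (adjusted p = 0.0939), HF replicate 2 (0.0635) or HFGSC replicate 2 (0.0710) and with median scaling (0.0891). Gdnf, the growth factor that maintains spermatogonial stem cells, read 7.66 and 11.25 in HFGSC, 7.31 and 8.30 in GSC, and 4.95 and 4.99 in HF by its brighter probe, while its second probe was detected on no array. It was at least 8.03-fold higher in HFGSC than in HF (adjusted p = 0.0188), which did not pass without HF replicate 1 (0.0687) or HF replicate 2 (0.0623), and the bound was 27.9-fold without HFGSC replicate 1 and 2.31-fold without replicate 2. Cxcl12, a chemokine that many stromal cells make, read 10.10 and 12.84 in HFGSC, 9.98 and 10.52 in GSC, and 6.70 and 6.53 in HF, 29.0-fold higher in HFGSC (adjusted p = 0.00586), or 74.8-fold without HFGSC replicate 1 and 11.2-fold without replicate 2. Of the other Cxcl12 probes 2 were detected on the HFGSC and GSC arrays alone, and 2 on no array. Like Cldn11 and Inha, Sox9, Gdnf and Cxcl12 were higher on HFGSC replicate 2 than on replicate 1, while Espn and Ocln were lower. Of 22 genes of the wider list detected on both HFGSC arrays, 17 were higher on replicate 2, against 52.5% of all such genes. Kitl, the ligand of the germ cell receptor Kit, read 5.90 and 5.31 in HFGSC, 5.25 and 5.10 in GSC, and 9.87 and 7.68 in HF, and fell in HFGSC (adjusted p = 0.0128) and in GSC (adjusted p = 0.00673) by the brightest of its 3 probes, the other 2 being undetected throughout.

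Markers of the other somatic cells of the testis were read beside those of Sertoli cells. Detected throughout a group means on both of its arrays, as 52.6%, 52.1% and 44.1% of all genes were in HFGSC, GSC and HF. Of 10 Leydig cell genes, 0 were detected throughout HFGSC, 2 throughout GSC and 1 throughout HF. Another 7, among them Star, Cyp17a1 and Hsd3b1 of steroid synthesis, were not detected on any array, against 6888 of all 19057 genes. Cyp11a1, also of steroid synthesis, was detected on both GSC arrays, at a mean of 6.50 log2, and on no HFGSC or HF array. It did not pass in any comparison. Insl3, a hormone of adult Leydig cells, read 5.14 and 7.54 log2 in HFGSC, 8.18 and 8.24 in GSC, and 5.54 and 5.39 in HF. It was at least 3.39-fold higher in GSC than in HF (limma adjusted p = 0.0232), a call lost without any single HF or GSC array (adjusted p between 0.0734 and 0.0902). Scarb1, a lipoprotein receptor that supplies cholesterol, fell in both groups against HF (adjusted p = 0.0274 in HFGSC and 0.0147 in GSC), with 1 of 2 arrays detected in each, and this was lost without HF replicate 2 in both, without HF replicate 1 or HFGSC replicate 1 in HFGSC, and without GSC replicate 1 in GSC. Of 12 peritubular myoid genes, the corresponding numbers were 8 in HFGSC, 7 in GSC and 7 in HF, but the smooth muscle genes Myh11 and Cnn1 were not detected on any array. Acta2, smooth muscle actin, which activated fibroblasts also express, read 11.36 and 13.00 in HFGSC, 11.00 and 11.62 in GSC, and 7.30 and 8.69 in HF, and was 18.2-fold higher in HFGSC than in HF (adjusted p = 0.0045), and between 10.3-fold and 32.1-fold when single arrays were left out. In GSC it was 9.97-fold higher (adjusted p = 0.01; 0.0691 without GSC replicate 2, and 6.16-fold without HF replicate 1). Pdgfra, a growth factor receptor of mesenchymal cells, was at least 10.4-fold higher in HFGSC (adjusted p = 0.00124) and at least 4.83-fold in GSC (adjusted p = 0.00318; 3.16-fold without GSC replicate 1). Actg2, another smooth muscle actin, went the other way, at least 4.20-fold lower in HFGSC (adjusted p = 0.000847) and 4.16-fold in GSC (adjusted p = 0.00127), as did the tropomyosin gene Tpm1, 5.27-fold lower in HFGSC (adjusted p = 0.0053; 3.37-fold without HFGSC replicate 1) and 6.50-fold in GSC (adjusted p = 0.0029).

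Endothelial and macrophage lists completed the comparison, again beside 52.6%, 52.1% and 44.1% of all genes detected on both arrays of HFGSC, GSC and HF. Of 10 endothelial genes, 5 were detected throughout HFGSC, 6 throughout GSC and 4 throughout HF. Eng, the TGF-beta coreceptor endoglin, read 5.60 and 7.46 log2 in HFGSC, 5.44 and 6.25 in GSC, and 11.97 and 12.01 in HF, and fell in HFGSC (limma adjusted p = 0.00171) and in GSC (adjusted p = 0.000911), detected on 1 of 2 arrays in each. Vwf, the clotting factor carrier of endothelium, read between 5.95 and 6.90 in HFGSC and GSC, near the lowest detected values, and rose in HFGSC (adjusted p = 0.0437, lost in 7 of 15 settings) and in GSC (adjusted p = 0.0224, lost in 3 of 15, each leaving out 1 array). Pecam1, an endothelial adhesion protein, rose in GSC by at least 1.14-fold (adjusted p = 0.00896, but 0.0553 without HF replicate 1). Of 11 macrophage genes, 1, 2 and 1 were detected on both arrays of HFGSC, GSC and HF. Another 7, among them Ptprc, Adgre1 and C1qa, were not detected on any array, against 6888 of all 19057 genes. Fcer1g, the signalling chain of Fc receptors in myeloid cells, read 5.33 and 5.29 log2 in HFGSC, 9.74 and 10.09 in GSC, and 5.27 and 5.69 in HF, detected on the GSC arrays alone. It was at least 11.1-fold higher in GSC than in HF (limma adjusted p = 0.000403) and at least 15.9-fold lower in HFGSC than in GSC (adjusted p = 0.0119), though this last call was lost with the 4 arrays of both groups alone and without HFGSC replicate 2 (adjusted p up to 0.0601). Cd14, a receptor for bacterial lipopolysaccharide on macrophages, read 7.16 and 9.45 in HFGSC, 6.83 and 8.03 in GSC, and 10.73 and 11.23 in HF. It fell in GSC (adjusted p = 0.0155, lost without HF replicate 1, HF replicate 2 or GSC replicate 1) and in HFGSC (adjusted p = 0.0493, lost in 10 of 16 settings).

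The germ cell list was read on the same arrays, with 12 of 13 genes detected throughout HFGSC, 12 throughout GSC and 1 throughout HF. Of all genes 52.6%, 52.1% and 44.1% were. Of 12 tested genes 10 rose in HFGSC and 11 in GSC against HF, and 0 fell. As 1 gene of the list was detected throughout HF, the others entered the test through HFGSC or GSC arrays, where they are high. Such genes could hardly fall, so these counts are no support of their own. Of all tested genes 17.2% rose and 9.37% fell in HFGSC, and 19.5% rose and 12.6% fell in GSC. The GDNF receptor gene Ret was at least 264-fold higher in HFGSC and 220-fold in GSC, and Tex19.1, a gene of germ cell transposon control, at least 229-fold in HFGSC and 387-fold in GSC. The transcription factor genes Sall4, at least 112-fold in HFGSC and 117-fold in GSC, and Sohlh1, at least 138-fold in HFGSC and 266-fold in GSC, rose as well (limma adjusted p at most 0.000118 for these 4 genes in both comparisons).

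**Figure D5:**
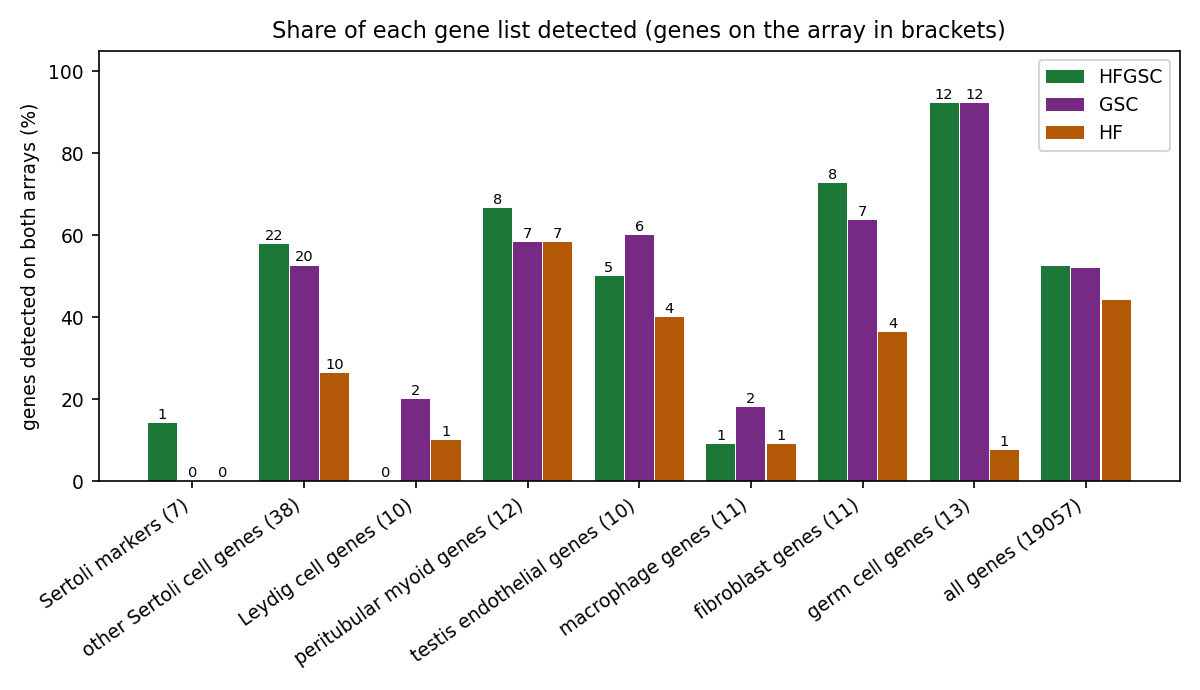
Share of each gene list detected on both arrays of HFGSC, GSC and HF, with the number of genes on each bar and the number of genes on the array in brackets; bars start at 0. Sertoli markers have 1 gene detected in HFGSC and 0 in GSC and HF, while 12 of 13 germ cell genes are detected in HFGSC and in GSC.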

How the data were processed

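RNA of 6 mouse samples was hybridised to bead arrays as biotinylated cRNA, per the labels. One deposited table gives each probe's intensity, linear and not normalized, next to its detection p-value, per the file headers. The authors' second deposited table holds log2 values whose columns share a median of 7.05 and lie within 0.148 of quantile normalized log2 intensities. The software was GenomeStudio 2011.1 and R 3.0.2, per the submitters' processing notes. Samples were grouped by title.

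The function neqc (limma 3.58.1, R 4.3.3) corrected the background through the detection p-values, added an offset of 16, and applied quantile normalization and log2. Of 45281 probes, 34885 had 1 gene symbol, 18 several and 10378 none. Testing was limited to probes detected at p under 0.05 on both arrays of 1 or more groups, with each gene's brightest probe used. This left 10913 genes, 1 of them a Sertoli marker. A gene undetected in a group entered through the groups where it is high. Counts of list genes that rose or fell are therefore no support of their own. A linear model over all 6 arrays, with 3 residual degrees of freedom and a mean-variance trend, was tested on simulated data and then fitted. All 10913 p-values of a comparison were adjusted together (Benjamini-Hochberg, threshold 0.05). An exact test of 2 against 2 arrays cannot go below a two-sided p of 0.333.

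The members and the 12 lists were chosen with earlier results of these data known. All markers are named, and from each other list up to 4 genes per comparison with the smallest adjusted p among those that passed. List members named for being undetected or detected everywhere were chosen after their values were seen. So were Cyp11a1, Inhba, Sox9, Gdnf, Cxcl12, Kitl and Ocln in GSC. Lists share Gata1, Inhba, Lhcgr and Nr5a1. Alternatives covered the filter, probe choice, background, scaling, offset, trend, arrays in the fit, replicate block and leaving out each array.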

Additional observations from a re-analysis of the deposited data

How the results depend on the processing

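With 1 of 7 markers tested, the count that passed was 1 in HFGSC against HF and 0 in GSC against HF in all 16 alternatives. In HFGSC against GSC it was 1 as reported and 0 with no filter on detection, in the authors' normalized log2 values, with no background correction, with an offset of 50, with no mean-variance trend and with the 4 arrays of the groups compared alone; leaving out single arrays gave 0 to 1. The cause was not tested. Detection counts were the same at p under 0.01. In the authors' log2 values, which keep the background, Cldn11 averaged 6.97 in GSC and 6.49 in HF, and Inha 7.35 in HFGSC, 7.05 in GSC and 6.63 in HF.

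Of 78 differences followed, those of Cldn11, of the listed genes named by the rule and of every gene of the wider Sertoli list that passed, 46 kept their side of the threshold in every alternative, 32 were lost in at least 1 and 0 reversed. Over all genes 2896, 3501 and 48 passed in HFGSC against HF, GSC against HF and HFGSC against GSC. Leaving out 1 array gave 1371 to 2860, 1699 to 3876 and 0 to 54, and the other alternatives without a block 2410 to 2822, 3107 to 3853 and 5 to 63. With the replicate number as a block they were 5122, 5669 and 174, and the marker counts were 1, 0 and 1. The numbers are tied to no animal or batch in the labels. Across genes, the replicate 1 minus 2 difference had a correlation of 0.436 between HFGSC and HF, 0.757 between GSC and HF and 0.580 between HFGSC and GSC. Signal over background limits the markers: values under the lowest detected intensity have no order.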
